A study of Mus musculus with 2 samples.

Results

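Erap1 and 9 related aminopeptidase genes were examined in the intestine of ERAP1 WT and ERAP1+/- mice. The genes were chosen by symbol, as the targeted gene and other enzymes that shorten peptides from their N-terminal end, and all 10 were found among the 40879 gene symbols counted in each library. Each genotype was represented by 1 library, made from RNA pooled from 3 mice and sequenced from the 3' ends of polyadenylated transcripts. The methods give an age of 8 weeks at the assignment of the mice to groups, on the C57BL/6 background, and control mice then had regular water for 28 days. The labels name no treatment, and the study's discussion describes the sequenced comparison as one at steady state. The age at which the pooled tissue was taken is not stated for these libraries. The ERAP1+/- mice derive from an embryonic stem cell clone carrying the tm1a(EUCOMM)Wtsi allele, crossed with a strain expressing Cre recombinase whose promoter is not named, so that exons 6 and 7 of Erap1, which lie between loxP sites, can be removed. With 1 pool per genotype, the effect of genotype cannot be told apart from any other difference between the pools, and no p-value is given.

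ERAP1 resides in the endoplasmic reticulum, where it trims the N-terminal ends of peptides that arrive from the cytosol until they fit the groove of class I major histocompatibility molecules. Other aminopeptidases act before or beside it. Enzymes of the cytosol shorten proteasome products or destroy them, an enzyme of endosomal vesicles trims peptides of internalized antigens, and enzymes anchored in the plasma membrane digest peptides outside the cell, among them dietary peptides at the brush border of the gut. The mouse has no counterpart of human ERAP2.

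The sequence of the targeted exons is shown first because it holds the catalytic centre of the enzyme. On the GRCm38 build, as annotated by GENCODE M21, the gene Erap1 (ENSMUSG00000021583.7) occupies chr13:74639568-74693201 on the plus strand, and its transcript Erap1-201 has 19 exons that encode 930 residues. Exons 6 and 7 are wholly coding and together encode residues 296 to 385. The capitals mark, in exon 6, the codons of the exopeptidase motif GXMEN, which starts at residue 306, and those of the zinc-binding motif HEXXH, which starts at residue 342. In exon 7 they mark the codon of the distal glutamate that completes the zinc site, at residue 365. Both sequences are read 5′ to 3′ on the plus strand.

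Exon 6, chr13:74663409-74663563: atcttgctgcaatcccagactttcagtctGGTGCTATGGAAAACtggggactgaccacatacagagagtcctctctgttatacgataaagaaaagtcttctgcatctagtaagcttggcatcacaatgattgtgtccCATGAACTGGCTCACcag

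Exon 7, chr13:74664109-74664222: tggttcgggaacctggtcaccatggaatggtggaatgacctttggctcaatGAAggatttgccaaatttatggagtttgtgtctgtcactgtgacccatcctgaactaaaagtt

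When exon 5 was joined to exon 8 in the annotated sequence, the reading frame shifted and met a stop codon after 304 residues, 9 of them beyond the last intact codon of exon 5. The start of exon 8 up to this stop is shown with the stop codon in capitals, since it is where translation of a transcript without exons 6 and 7 would end. This is a reading of the reference sequence, and the deposited gene counts hold no information on exons or alleles.

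Start of exon 8, from chr13:74666099: gaagactatttctttggcaagtgtttTAA

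**Figure D1:**
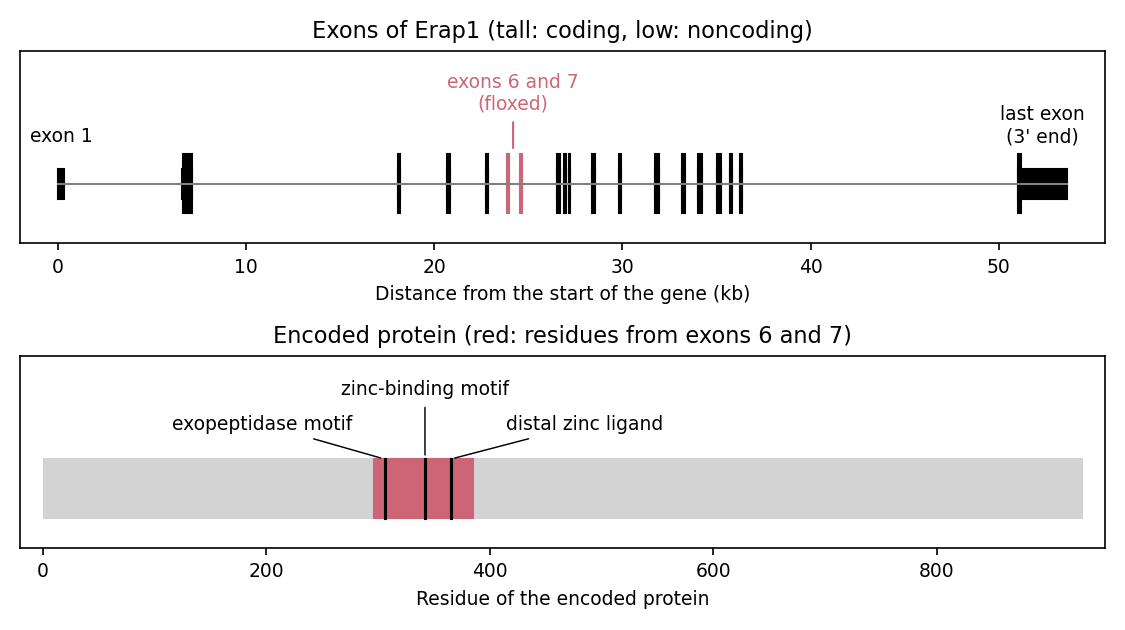
Exons of Erap1 along the gene, as distance from the start of the gene in kb (top, tall boxes coding and low boxes noncoding), and the encoded protein by residue (bottom). The exons between the loxP sites, in red, encode residues 296 to 385 and hold both motifs and the distal zinc ligand, while the last exon lies 26352 bp downstream of exon 7.

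Of the 10 genes, 7 encode members of the M1 family of zinc metallopeptidases, and all 7 hold the HEXXH motif followed by the distal glutamate. They are Erap1, Lnpep, Npepps, Anpep, Enpep, Rnpep and Trhde. The codons of the motif are printed in capitals with their flanks, from the GENCODE M21 transcripts, to show how far the family resembles its targeted member. Of the 5 codons, those of Trhde differ from those of Erap1 at 2, those of Anpep at 4 and those of the other 4 genes at 3. These counts include changes that leave the residue the same, so they do not rank the encoded motifs. The codons of Lnpep, Npepps and Anpep encode the same residues as those of Erap1, while Enpep, Rnpep and Trhde differ in residues too.

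Erap1: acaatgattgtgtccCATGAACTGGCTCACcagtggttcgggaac

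Lnpep: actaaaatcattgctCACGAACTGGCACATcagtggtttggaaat

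Npepps: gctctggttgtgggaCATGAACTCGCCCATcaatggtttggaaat

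Anpep: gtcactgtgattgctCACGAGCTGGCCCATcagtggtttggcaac

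Enpep: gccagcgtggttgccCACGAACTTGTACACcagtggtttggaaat

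Rnpep: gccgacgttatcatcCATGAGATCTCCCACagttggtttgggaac

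Trhde: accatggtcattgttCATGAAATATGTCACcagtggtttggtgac

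The GXMEN letters were found in 6 of the 7, all but Trhde, and in 5 of these they start 36 residues before the zinc-binding motif. In Rnpep the spacing is 27 residues. Over the aligned residues of the encoded proteins, Lnpep was the nearest to Erap1, with 48.5% identity. The identity with Erap1 was 36.1% for Enpep, 35.3% for Npepps, 35.0% for Trhde, 33.6% for Anpep and 29.0% for Rnpep. Neither motif was found in Lap3, Blmh or Tpp2. These encode a metallopeptidase of another family, a cysteine peptidase and a serine peptidase of the subtilisin type.

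Counted reads came to 8114826 for WT and 8907515 for ERAP1+/-. Levels are given in CPM, a gene's reads scaled to a common library total, after TMM normalization, which sets the scale from the bulk of genes whose ratio is not extreme. They carry 95% intervals that cover counting error only and not the variation between mice. Of the 15 colon epithelium genes listed, all had reads in both libraries. Of 11 genes listed for absorptive cells of the small intestine, Sis, Apoa4 and Enpp7 had no read in either library and 5 others at most 5 reads in each. The glucose transporter gene Slc5a1 had 1273 and 1201 reads, Apob 131 and 171, and Rbp2 52 and 34. The libraries differed beyond Erap1. The summed level of 13 epidermis genes was 2948 CPM in WT and 37.5 CPM in ERAP1+/-, and that of 14 skeletal muscle genes 1394 and 24.6 CPM. The RNA Xist, which coats the silenced X chromosome of female cells, had 1635 and 6451 reads, and the Y-linked gene Ddx3y 319 and 29. Genes of B and plasma cells summed to 156 and 437 CPM, of macrophages to 221 and 270, and of enteric neurons to 93.4 and 162. Those of fibroblasts and pericytes summed to 3406 and 2950 CPM. Those of T and NK cells summed to 5.15 and 5.59 CPM, from 40 and 52 reads. Only genes of these lists past a level of 4 in log2(CPM + 1) in 1 or both libraries were considered further. Past 2-fold among them were Jchain (561 and 2788 reads) and Mzb1 (27 and 201) of plasma cells and Vip (129 and 348) of neurons. All 3 were higher in ERAP1+/-. Among genes past the level, the lowest log2 difference was 0.41 in plasma cells (Xbp1) and 0.32 in neurons (Elavl4). The differences ran from -0.12 (Mrc1) to 0.73 (Lyz2) in macrophages and from -0.59 (Thy1) to 0.37 (Pdgfrb) in fibroblasts and pericytes. The part of these differences between the pools in the results that follow was not tested.

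The targeted gene itself was counted 229 times in WT and 2 times in ERAP1+/-. This corresponds to 29.5 CPM (95% interval 25.8 to 33.5) and 0.215 CPM (0.026 to 0.777), so that the levels were far apart and their intervals did not overlap. The ERAP1+/- level was 0.730% of the WT level, with a 95% interval from 0.0878% to 2.67%, or 137-fold lower with an interval from 37.5 to 1139. A level of 50% of WT, which a single intact copy with the output it has in WT would give, corresponds to 137 reads in the ERAP1+/- library, against the 2 counted. The level was thus below what the label of a heterozygous genotype implies, and throughout "ERAP1+/-" stands for the library labelled so.

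The reads lie at the 3' end of transcripts, whereas the exons between the loxP sites lie far upstream. The count is therefore not a direct measure of exons 6 and 7, and a transcript without these exons that kept its 3' end would still be counted. A shorter annotated transcript of Erap1 also ends downstream of exon 7, at chr13:74667958-74669381. The last 834 bases of the last exon of Erap1 (chr13:74690574-74693201) also overlap the last exon of Cast, the gene of the calpain inhibitor calpastatin, which is transcribed from the opposite strand in the transcripts Cast-207 and Cast-211. Cast had 1702 reads in WT and 1381 in ERAP1+/- and was 1.48-fold lower (95% interval 1.37 to 1.59). Whether the counting used the strand is not stated, and without it the reads of the shared stretch cannot be told apart. No other of the 10 genes had an annotated gene over its last exon.

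The difference of Erap1 was also read as shares of reads. Within the summed reads of Erap1 and Lnpep, a share that no scaling between libraries enters, Erap1 took 74.6% of 307 reads in WT (95% exact interval 69.3% to 79.4%) and 2.74% of 73 reads in ERAP1+/- (0.334% to 9.55%). Of the reads of all 10 genes it took 5.97% (5.24% to 6.77%) and 0.0539% (0.00652% to 0.194%).

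**Figure D2:**
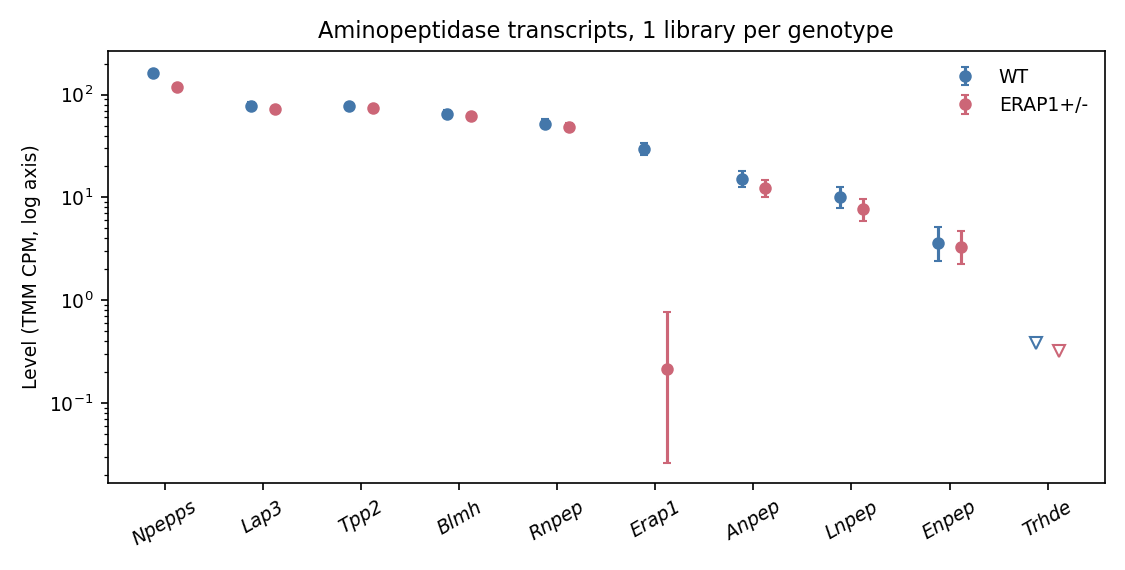
Level of each aminopeptidase transcript in the WT and the ERAP1+/- library, in TMM-scaled CPM on a log axis, with exact Poisson 95% intervals. Open triangles mark a fixed bound of 3 reads for a count of 0, in place of an interval. Erap1 lies at 29.5 CPM in WT and 0.215 CPM in ERAP1+/-, and the pairs of points of the other detected genes lie close together.

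Lnpep encodes the insulin-regulated aminopeptidase, the enzyme of endosomal vesicles that also trims antigenic peptides, and is the nearest relative of Erap1 among these genes. It lies on another chromosome (chr17:17521410-17625050, minus strand). It had 78 reads in WT and 71 in ERAP1+/-, or 10 and 7.63 CPM. The ERAP1+/- level was 76.0% of the WT level (95% interval 54.3% to 106%), so that a difference was not detectable at this depth.

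Of the 5 enzymes grouped here as cytosolic, Npepps was the most abundant. It encodes the puromycin-sensitive aminopeptidase, which removes single residues from peptides released by the proteasome, and lies at chr11:97205842-97280638. It had 1264 reads in WT and 1109 in ERAP1+/-, or 163 CPM (95% interval 154 to 172) and 119 CPM (112 to 126). Its level in ERAP1+/- was 73.3% of that in WT (67.5% to 79.5%). This was the only one of the 8 detected genes other than Erap1 whose interval excluded 100%. Of the reads of the 9 genes without Erap1, Npepps took 35.0% in WT (33.5% to 36.6%) and 29.9% in ERAP1+/- (28.4% to 31.4%). The difference depended on the reference: Npepps stood at 79.9% of WT (73.7% to 86.7%) with scaling by the total count and at 95.9% (88.4% to 104%) when the libraries were scaled to the summed reads of the colon epithelium genes.

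The other 4 enzymes of this group differed by less than their counting error under TMM. Tpp2 (chr1:43933647-44003000) encodes tripeptidyl peptidase II, a very large serine peptidase that releases tripeptides, and had 599 and 687 reads. Its level in ERAP1+/- was 95.8% of that in WT (95% interval 85.7% to 107%). Lap3 (chr5:45493374-45512691) encodes leucine aminopeptidase, which is induced by interferon gamma, and had 608 and 673 reads, a level of 92.5% of WT (82.7% to 103%).

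Blmh (chr11:76924809-76987379) encodes bleomycin hydrolase, a cysteine aminopeptidase named for its inactivation of that drug. It had 507 and 572 reads and stood at 94.2% of WT (95% interval 83.5% to 106%). Rnpep (chr1:135262712-135284084) encodes aminopeptidase B, which removes N-terminal arginine and lysine. With 406 and 454 reads it stood at 93.4% of WT (81.5% to 107%). None of these 4 levels was below 81.5% of WT or above 107% within its interval.

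The 3 enzymes of the cell surface had fewer reads than each of the 5 grouped as cytosolic in both libraries. Anpep (chr7:79821803-79861059) encodes aminopeptidase N, or CD13, an enzyme of the intestinal brush border that is also found on myeloid cells. It had 117 and 115 reads, or 15.1 and 12.4 CPM, and stood at 82.1% of WT (95% interval 62.9% to 107%). Enpep (chr3:129269175-129332720) encodes aminopeptidase A, which removes N-terminal acidic residues and converts angiotensin II. Its 28 and 31 reads gave 3.60 and 3.33 CPM and a level of 92.5% of WT, with an interval from 53.7% to 160% that leaves room for a difference in either direction.

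Trhde (chr10:114398823-114802307) encodes the ectoenzyme that degrades thyrotropin-releasing hormone. It had no read in either library. A count of 0 allows up to 3 reads, which is 0.386 CPM in WT and 0.322 CPM in ERAP1+/-, and no ratio is given.

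In WT, the order of levels in CPM was Npepps, Lap3, Tpp2, Blmh, Rnpep, Erap1, Anpep, Lnpep and Enpep. Lap3 and Tpp2 did not differ beyond counting error, with a ratio of 1.02 (95% interval 0.905 to 1.14), and every other pair of neighbours did. In ERAP1+/-, Erap1 moved from the sixth place to the last, and the other genes kept their order except for Tpp2 and Lap3, which again did not differ (ratio 1.02, 0.917 to 1.14). Because the libraries hold 3' ends, CPM is close to a count of transcripts, and it was also divided by transcript length for comparison. Per kilobase, Npepps (38.6 CPM per kb in WT) and Lap3 (34.5) remained the highest in WT, Tpp2 moved behind Blmh and Rnpep with 16.6, and Lnpep, whose transcript is 12052 bases long, came last with 0.833. In ERAP1+/-, Lap3 (31.9 CPM per kb) was above Npepps (28.3), and Erap1 was last with 0.0381.

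A level of 4 in log2(CPM + 1) was passed by 7 of the 10 genes in 1 or both libraries, but not by Lnpep, Enpep and Trhde. A gene was called where the difference on this scale passed 2-fold, with no test applied. Of the 7 genes, 1 was called, Erap1. Erap1 (4.93 in WT and 0.28 in ERAP1+/-) and Anpep (4.01 and 3.74) passed the level through their WT value alone, and the other 5 passed it in both libraries. Anpep was below the level with scaling by the total count or to the colon epithelium genes. Over all 8013 genes past the level, 5.34% were called, 3.96% with a lower and 1.39% with a higher level in ERAP1+/-. The median difference of the 7 genes was -0.11 against -0.03 over all genes past the level, where the middle 50% of genes ran from -0.28 to 0.21. Tpp2 (-0.06), Blmh (-0.08), Rnpep (-0.10), Lap3 (-0.11) and Anpep (-0.27) were inside this range, Npepps (-0.45) was below it with 15.1% of all genes at or under its value, and Erap1 (-4.65) had 66 genes below it.

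**Figure D3:**
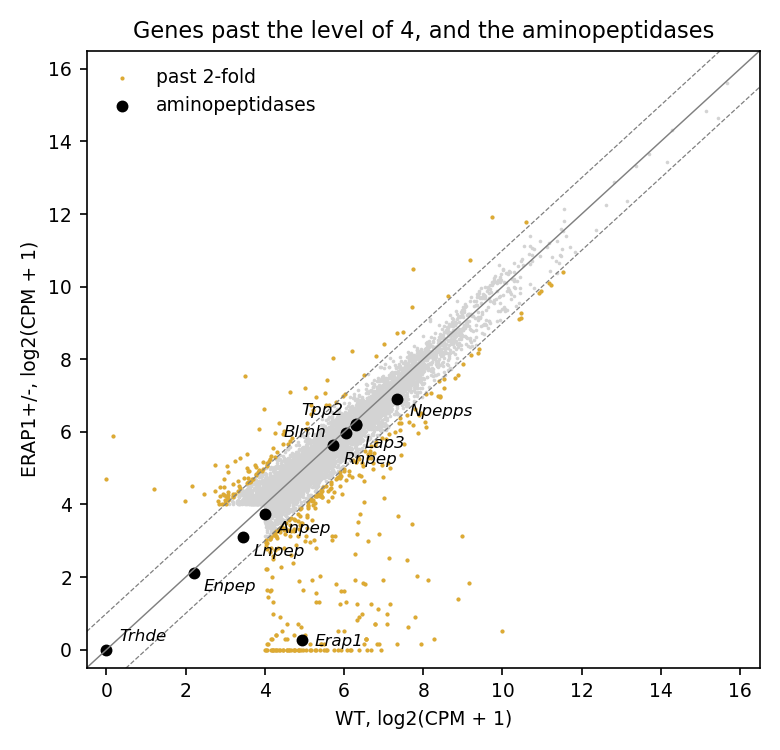
Level of each gene in WT (x axis) and ERAP1+/- (y axis) as log2(CPM + 1), for the 8013 genes past a level of 4 in 1 or both libraries, with the 428 genes past 2-fold in yellow and the aminopeptidases in black. The dashed lines mark 2-fold; Erap1 lies at 4.93 in WT and 0.28 in ERAP1+/-, among the yellow points, and the other aminopeptidases lie between the dashed lines.

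All 8 detected genes other than Erap1 were lower in ERAP1+/- under TMM, by 0.06 to 0.45 on the log2(CPM + 1) scale, but 5 of the 8 were higher with scaling by the total count and 6 with scaling to the colon epithelium genes. Scaling by the total count moves all ratios by 0.125 on the log2 scale and scaling to the colon epithelium genes by 0.387. In raw reads, 5 of the 8 had more and 3 had fewer in ERAP1+/-. With the colon epithelium as reference, the intervals of Tpp2, Blmh, Rnpep and Lap3 lay above 1 and none lay below. In pooled tissue, fewer cells of a type and less RNA per cell cannot be told apart, and none of the 3 scalings was taken as the correct one. Erap1 stood at 0.730% of WT under TMM, at 0.796% with the total count and at 0.954% with the colon epithelium as reference (upper limit 3.49%).

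**Figure D4:**
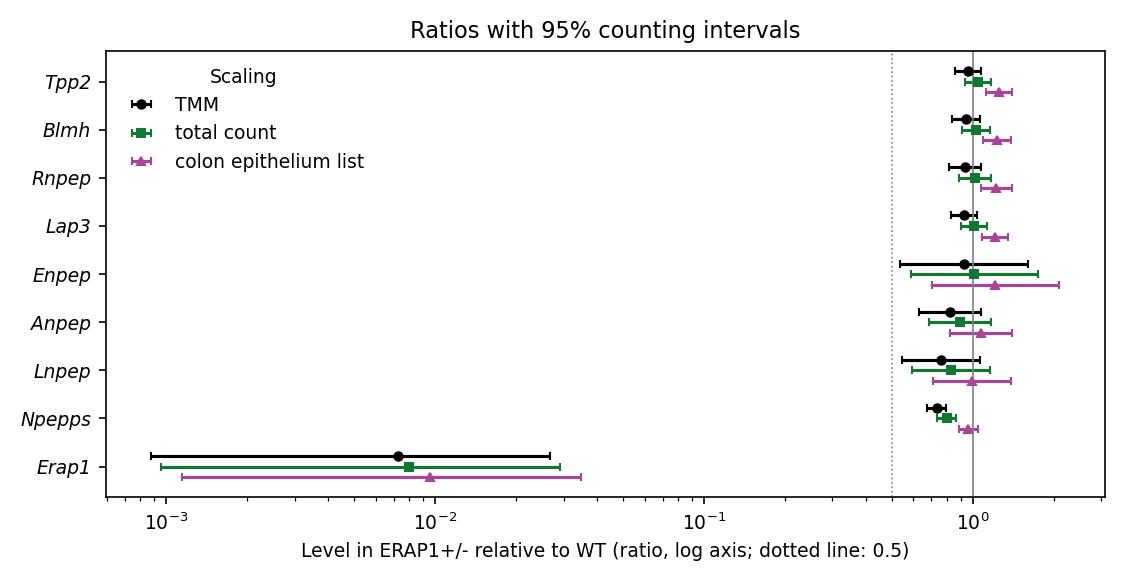
Ratio of the level in ERAP1+/- to that in WT on a log axis for the 9 detected genes, with exact conditional binomial 95% intervals of the counts, under scaling by TMM (circles), by the total count (squares) and to the colon epithelium genes (triangles). Erap1 lies near 0.0073 to 0.0095 under each. Of the other 8 genes, Npepps and Lnpep lie below the line at 1 under each scaling, and the rest change side with the scaling.

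The genes whose difference was nearest to that of Erap1 included genes of skin and hair. Among the 2926 other genes past the level whose mean CPM was within 2-fold of that of Erap1, the 5 with the nearest log2 difference were Krt34, Serpinb12, Gm41515, Awat1 and Lce1d, within 0.08 of its value. The likeness is over 2 libraries only. Krt34, a keratin of hair, had 190 and 0 reads, Lce1d of the late cornified envelope family had 198 and 0, and Serpinb12 had 245 and 3. Of the epidermis genes, Flg, Calm4, Krtdap, Lor, Krt1, Krt10, Dsc1, Ivl, Sbsn, Krt14 and Krt5 were lower in ERAP1+/- by more than 2-fold, with log2 differences from -9.48 for Flg to -2.63 for Krt5. Of the skeletal muscle genes, Myh8, Myh1, Ttn, Tnnt3, Tnnc2, Mylpf, Neb, Acta1, Atp2a1, Tnni2, Myh2, Myl1 and Ckm were lower, from -7.20 for Myh8 to -3.15 for Ckm. Like Erap1, these genes passed the level through WT alone and so had to be higher there, and their number is no support for a likeness. In the ERAP1+/- library 4 of the epidermis genes were at 0 reads, Ivl, Dsg1a, Dsc1 and Trp63, and 1 of the skeletal muscle genes, Atp2a1. The part of these tissues in the WT reads of Erap1 was not tested. The other 8 aminopeptidases did not show the pattern, since the lowest stood at 73.3% of WT.

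Further peptidases past the level did not pass 2-fold in either direction, where 5.34% of all 8013 genes past the level were called. At that share, lists of these sizes would hold few called genes or none. Of 5 other M1 family genes, 3 were past the level and none was called, with a median log2 difference of 0.02. The lowest was Aopep, aminopeptidase O, with 426 and 396 reads (-0.36), and the highest Lta4h, the leukotriene A4 hydrolase, with 367 and 596 reads (0.43). Of 15 other cytosolic peptidases 14 were past the level, with a median of 0.12. They ran from Ide, the insulin-degrading enzyme, with 300 and 198 reads (-0.83), to Pepd, the dipeptidase that cleaves before proline, with 114 and 193 reads (0.47). Nrdc is listed under its older symbol Nrd1.

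Of 10 other peptidases of the cell surface, 4 were past the level, and their median was -0.33. Mep1a, a subunit of the brush border metalloprotease meprin, had 1780 and 1207 reads (-0.82). Dpp4, which removes N-terminal dipeptides, had 98 and 209 reads (0.79) and was 1.78 times as abundant in ERAP1+/- (95% interval 1.39 to 2.29). Among 13 lysosomal peptidases, 12 were past the level, with 6 higher, 6 lower and a median of -0.08, from Ctsd (-0.57) to Scpep1 (0.37).

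The partners of ERAP1 in class I presentation past the level were also within 2-fold, as were all but 5.34% of genes past the level. Of 11 genes of peptide transport and loading, 10 were past the level, 4 higher and 6 lower, with a median log2 difference of -0.28. H2-D1, a class I heavy chain, had 5848 and 4633 reads (-0.59), and Tapbp, which encodes the loading chaperone tapasin, 2360 and 1873 reads (-0.59). The subunits of the peptide transporter differed in sign, Tap1 with 133 and 110 reads (-0.50) and Tap2 with 135 and 194 reads (0.25). B2m, the light chain of class I molecules, had 7230 and 10132 reads (0.23).

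The proteasome produces the peptides that these enzymes trim. Its 14 core subunits were all past the level and ran from -0.16 for Psmb5 to 0.17 for Psma4, with 7 higher, 7 lower and a median of 0.01. The immunoproteasome subunits Psmb8 (0.01), Psmb9 (0.01) and Psmb10 (-0.06) and the activator subunit Psme1 (0.17) were in the same range, and the other activator subunit, Psme2, had 738 and 668 reads (-0.40). Signs of differences this small turn with the scaling. The colon epithelium genes had a median of -0.37 over 15 genes, from Krt20 (-1.20) to Cdx2 (0.69), and the smooth muscle genes a median of -0.89 over 10 genes, from Tagln (-1.18) and Myh11 (-1.11), both past 2-fold, to Myocd (-0.20). Their part in the small differences of the aminopeptidases was not tested.

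**Figure D5:**
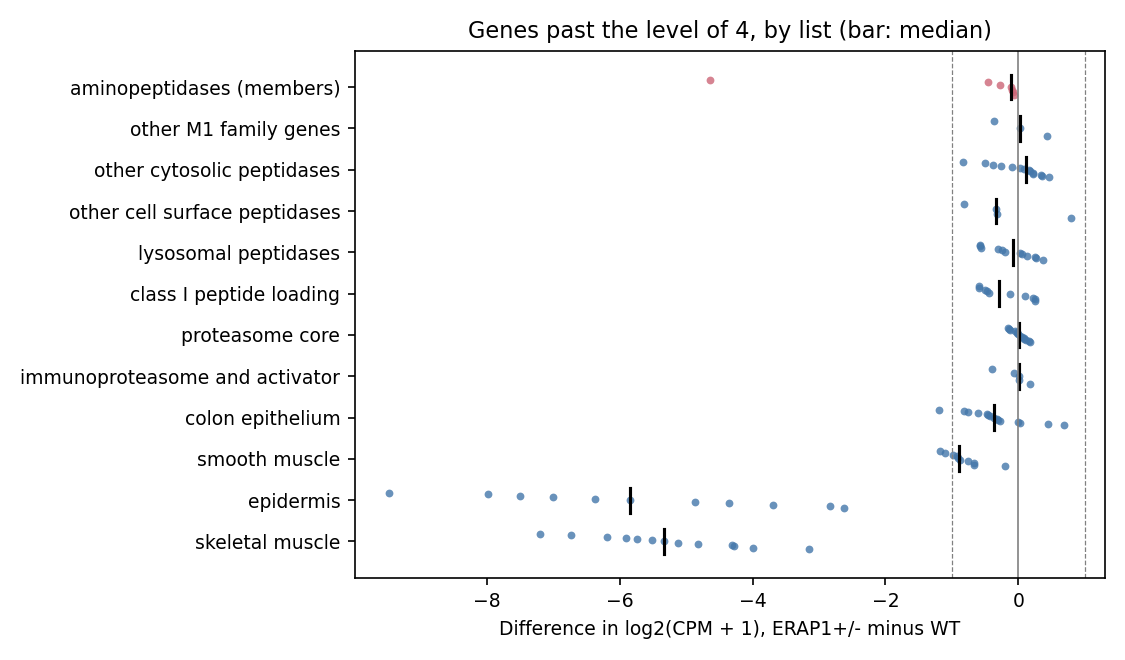
Difference in log2(CPM + 1), ERAP1+/- minus WT, of each gene past the level of 4, by gene list, with the median of each list as a bar and dashed lines at 2-fold. Erap1 (-4.65) stands apart from the other aminopeptidases, peptidases and class I genes, which lie between -0.83 and 0.79, and within the range of the epidermis and skeletal muscle genes.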

How the data were processed

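The deposited files hold raw read counts per gene symbol, without normalization, for 1 library per genotype (QuantSeq 3' FWD, RNA of 3 mice pooled). The study's methods give 2 routes to counts, STAR with HTSeq-count and Bowtie2 with RSEM on GRCm38, and the submitters' processing notes list Bowtie2 and RSEM. Which made the files, and the strand setting, are not given in the sources used here. The methods describe the mice both as germ-free and as housed free of specific pathogens.

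TMM factors came from edgeR 4.0.16 (0.958 for WT, 1.04 for ERAP1+/-). Level intervals are exact Poisson, ratio intervals exact conditional binomial and share intervals Clopper-Pearson (scipy 1.17.1). With 1 pool per genotype, the intervals cover counting error only. The methods name no molecular identifiers, and the intervals treat each read as a separate molecule. In a simulation of 40879 genes with Poisson noise and no other variation, the 2-fold rule recovered 200 of 200 genes with a 4-fold change. No unchanged gene passed 2-fold. The changed genes were drawn only from genes with a mean level above that of Erap1 in WT, so recovery at lower levels was not tested. The simulation used total counts as library sizes, so TMM was not tested by it. Proteins were translated from GENCODE M21 transcripts and aligned with Biopython 1.88 (BLOSUM62).

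Named were all 10 genes, of each list the genes past 2-fold and otherwise the lowest and highest, and the 5 genes nearest to Erap1. Cast, Rbp2, the other genes of the class I and proteasome lists, genes at 0 reads, Xist and Ddx3y were named after their values were seen. The members and lists were chosen with earlier results of these data known. Alternatives were DESeq2 1.42.0 size factors, scaling by total reads or to the colon epithelium genes, a smaller pseudocount (0.1), other filters and thresholds, thinning, and leaving out genes.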

Additional observations from a re-analysis of the deposited data

How the results depend on the processing

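No paired analysis was possible because only 1 pool stands for each genotype. Erap1 kept its direction under every alternative, from -6.55 with a pseudocount of 0.1 to -4.43 with scaling to the colon epithelium genes. It was the 1 aminopeptidase called under each except a level of at least 6, which Erap1 does not reach, where the count was 0. The number of all genes past 2-fold was 428 (317 lower, 111 higher). It was 1434 (952 and 482) with no filter on low values, 1390 (908 and 482) with at least 10 reads, 160 (126 and 34) with a level of at least 6, and 160 (144 and 16) with a 4-fold threshold. Scaling to the colon epithelium genes gave 588 genes, 176 lower and 412 higher, and the total count 414, 248 lower and 166 higher. At this depth the intervals of Lnpep, Anpep and Enpep include 100% of WT under TMM, the size of the Erap1 difference rests on 2 reads, and Trhde gives no ratio.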
